A study of Mus musculus with 24 samples.

Results

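Messenger RNAs of astrocytes and oligodendrocytes were followed in RNA-seq of sorted mouse brain endothelial cells. The astrocyte genes were Aqp4, Gfap, Aldh1l1, Slc1a2 and Slc1a3, and the oligodendrocyte genes were Mbp, Mog, Cnp and Cldn11. These 9 genes were taken by their symbol from the 53465 genes listed, and all 9 were among the 15493 genes that reached 5 normalized reads in 6 or more libraries of 1 genotype. Astrocytes wrap the brain capillaries with their endfeet, clear glutamate and potassium from the extracellular space and sit next to the endothelium of the blood-brain barrier. Oligodendrocytes wrap axons in myelin, a stack of membrane whose messenger RNAs are in part carried into the cell processes. Neither is an endothelial cell, and these genes are used as markers of glia.

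The study asked how gene expression in the endothelium of the blood-brain barrier changes over the day and what the clock gene Bmal1 (Arntl) contributes to it. Control mice were Bmal1fl/fl and mutant mice were Bmal1fl/fl; Tie2cre, both labelled C57BL/6J, so that both genotypes carried the floxed alleles and only the mutants carried Cre. The promoter Tie2 (Tek) drives Cre in endothelial cells, and also in blood cells and their precursors. Brains were taken at zeitgeber time (ZT, hours after lights on) 2, 6, 10, 14, 18 and 22 from 2 mice of each genotype, male and female, which gave 12 control and 12 mutant libraries with 1 mouse each; ages are not given in the sources used here. The tissue was digested, passed over beads that remove myelin, depleted of CD90-positive cells and sorted for CD31 (Pecam1), so glial RNA was measured as it remained after these steps.

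Totals lay between 6136404 and 6648311 normalized reads per library. The 12 endothelial markers (among them Pecam1 and Cldn5) were detected in every library, with a summed level of 7877 to 16834 on the length-scaled scale, on which the reads of each gene are divided by its exon length and brought to the same sum in every library. The library numbers in the labels fall into a first series of 3, a middle series of 8 and a last series of 13 libraries. The middle series held all ZT6 and ZT18 libraries and no other, so time of day and series cannot be told apart there. These 8 libraries stood apart: mitochondrial genes took 2.68% to 3.90% of their reads against 5.78% to 17.4% in the other 16. The study used 2 sorters and reports 2 independent experiments. Which library came from which sorter or experiment is not given in the sources used here. Arntl itself was present at 81 to 354 reads in mutants and at 1 to 468 reads in controls. The controls were low at ZT10 and ZT14, at 1 to 22 reads, where the mutants had 120 to 354. Reads were counted over the whole gene, so they do not test the loss of the floxed exon.

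Levels per length ordered the members over the 24 libraries. Slc1a2, the main glutamate transporter of astrocytes, had the highest median level, 329, and only 279 of 15481 kept genes with a known length had a higher median. Mbp, a structural protein that compacts myelin, followed at 228, with 434 genes above it. Slc1a2 was above Mbp in 19 of 24 libraries. This order depends on the length used: with the longest transcript in place of all exons, Mbp had 331 and Slc1a2 317, and Mbp was the higher in 14 of 24. Slc1a3, the second astrocyte glutamate transporter, had a median of 64.8 and was below Mbp in all 24. Gfap, the astrocyte intermediate filament protein, had 40.5 and Aqp4, the water channel of the endfeet, 29.8. With all exons those neighbours could hardly be ordered, since Gfap was the higher in 14 of 24 libraries. With the longest transcript Gfap was the higher in 23. Cnp, an enzyme of non-compact myelin, had 26.6 and was under Aqp4 in 17 libraries, and Aldh1l1, a folate enzyme used as an astrocyte marker, had 11.9 and was under Cnp in all 24. Cldn11, the claudin of myelin tight junctions, and Mog, a glycoprotein of the outermost myelin surface, were close to the limit of detection, at 2.26 and 0.84. Cldn11 was above Mog in 11 of 24 libraries, with no reads in 5 libraries, and Mog had no reads in 12. For comparison, the medians of Pecam1 and Cldn5 were 670 and 2415 on the same scale.

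Each class was carried by 1 gene. Slc1a2 made up 63.0% to 74.9% of the summed level of the 5 astrocyte genes, and Mbp made up 79.3% to 94.2% of that of the 4 oligodendrocyte genes. The astrocyte sum was 461 ± 184 (SD, n = 24) and the oligodendrocyte sum 272 ± 118, and the log2 of their ratio was 0.77 ± 0.40. That ratio was above 0 in all libraries but 1, a mutant ZT14 library at -0.08. With the length of the longest transcript in place of all exons the ratio was 0.35.

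Because BMAL1 with its partner CLOCK binds the E-box CACGTG, the 250 bases before the start site were searched in RefSeq (GRCm38.p6), which gave an entry for 7 of the 9 members. On both strands, CACGTG was in 0 of 7 of these windows and in 6.02% of all 32851 windows. The related CACGTT was also in 0 of 7, against 3.85%. The general form CANNTG, which includes CACGTG, was in 4 of 7, against 66.2%. Shown are 3 windows, those of the 2 glutamate transporters and the most abundant oligodendrocyte gene with an entry, with each CANNTG in capitals. They are chr2:102706188-102706437 (plus strand), chr15:8710808-8711057 (minus strand) and chr11:100574689-100574938 (plus strand).
Slc1a2: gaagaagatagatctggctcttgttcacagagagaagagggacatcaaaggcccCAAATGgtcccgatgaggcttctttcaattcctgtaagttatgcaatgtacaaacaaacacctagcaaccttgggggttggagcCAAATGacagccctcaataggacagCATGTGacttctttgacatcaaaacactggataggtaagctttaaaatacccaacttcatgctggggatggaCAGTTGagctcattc
Slc1a3: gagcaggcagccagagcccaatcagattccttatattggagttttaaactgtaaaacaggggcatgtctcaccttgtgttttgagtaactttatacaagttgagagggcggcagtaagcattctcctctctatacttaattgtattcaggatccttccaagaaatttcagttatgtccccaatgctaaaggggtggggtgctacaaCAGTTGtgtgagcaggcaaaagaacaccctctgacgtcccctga
Cnp: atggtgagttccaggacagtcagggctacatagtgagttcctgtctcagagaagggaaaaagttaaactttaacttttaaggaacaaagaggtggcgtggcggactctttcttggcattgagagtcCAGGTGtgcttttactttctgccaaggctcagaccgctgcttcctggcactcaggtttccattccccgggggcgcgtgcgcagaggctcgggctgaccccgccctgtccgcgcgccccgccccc
The starts used for Slc1a2, Cnp, Aldh1l1 and Gfap lie inside the annotated genes, downstream of their first annotated base. Their windows, 4 of the 7 searched, therefore lie inside the annotated gene or reach into it. Slc1a2 held 4 such motifs, the first 196 bases before the start. Slc1a3 and Cnp held 1 each, at 44 and 124 bases before the start, as did Aldh1l1. Gfap, Mog and Cldn11 held none. A match is a description of the sequence only.

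In the annotation (GENCODE vM21, GRCm38) Slc1a2 lies at chr2:102658659-102790784 on the plus strand, Slc1a3 at chr15:8634124-8710764 on the minus strand and Gfap at chr11:102887336-102900912 on the minus strand. Aldh1l1 lies at chr6:90486427-90600203 on the plus strand and Aqp4 at chr18:15389496-15410982 on the minus strand. Of the oligodendrocyte genes, Mbp lies at chr18:82475146-82585637 on the plus strand, Cnp at chr11:100574904-100591729 on the plus strand, Mog at chr17:37010743-37023398 on the minus strand and Cldn11 at chr3:31149920-31164324 on the plus strand. Annotated genes overlap all members but Cldn11. Slc1a3 shares its strand with Gm37310, and Aldh1l1 shares its strand with Gm45901 and Gm44236, so their reads may be split with these genes. The libraries kept strand, but whether strand was used in counting is not given in the sources used here.

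The first comparison asked whether loss of Bmal1 in Tie2 lineage cells went with a different amount of glial RNA. Mog passed the filter on low values through control libraries only and is described without a test here. None of the 8 others passed the threshold (edgeR quasi-likelihood test, adjusted p under 0.05 over all genes), while 0.271% of all genes did, 42 of 15493. At an unadjusted p under 0.05 there were 3 members and 1077 of all genes. All 8 estimates were negative, that is lower in mutants, and ran from -0.40 to -0.09 on the log2 scale in the members other than Cldn11, against a median of 0.00 over all genes. This direction did not hold throughout: within ZT6 and ZT18 the estimates of Gfap, Slc1a2 and Cnp were positive, at 0.20, 0.11 and 0.07. Slc1a2 was also positive, at 0.06, without the 3 libraries of the first series. Without them Slc1a3, Cnp and Aldh1l1 were at -0.04, -0.05 and -0.02, and Aqp4, Gfap and Mbp at -0.29, -0.21 and -0.11. The second sequencing index of the library (i5) went with genotype at ZT2 and ZT10, where the 4 control libraries carried one index and the 4 mutant libraries the other. With the index as a covariate no member passed, the log2 differences of Aqp4, Slc1a3 and Slc1a2 were -0.70, -0.41 and -0.23, and calls over all genes went from 42 to 7.

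The endfoot water channel Aqp4 had 149, 436 and 910 reads (lowest, median and highest of 12) in controls and 107, 290 and 826 in mutants. The ranges overlapped almost entirely. Its log2 difference was -0.40 (SE 0.18, edgeR adjusted p = 0.638). Gfap had 77, 419 and 621 reads in controls and 75, 285 and 465 in mutants, again with overlapping ranges. The log2 difference was -0.33 (SE 0.15, edgeR adjusted p = 0.678). It was -0.56 within ZT2, ZT10, ZT14 and ZT22, where 8 controls lay at 355 to 621 reads and 8 mutants at 268 to 465, with edgeR adjusted p = 0.180.

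Slc1a2 and Mbp, the members with the highest levels, had small estimates. Slc1a2 had 3168, 9132 and 12967 reads in controls and 2907, 7893 and 15226 in mutants, so that the mutants held both the lowest and the highest library. Its log2 difference was -0.09 (SE 0.12). Mbp had 1471, 3570 and 9040 reads in controls and 1175, 3369 and 6806 in mutants, with a log2 difference of -0.18 (SE 0.12). Those of Slc1a3, Cnp and Aldh1l1 were -0.24, -0.16 and -0.11, with SEs of 0.14 to 0.22. Aldh1l1 turned positive, at 0.01 and 0.00, when control ZT2 replicate 1 or control ZT14 replicate 2 was left out.

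The rare members were Cldn11 and Mog. Cldn11 had 0, 9.5 and 45 reads in controls and 0, 4 and 15 in mutants, and was listed at 0 in 1 control and 4 mutant libraries. The log2 difference was -1.94 with a SE of 0.76 (edgeR adjusted p = 0.554). Mog had at most 31 reads in controls and at most 16 in mutants, and was listed at 0 in 5 and 7 libraries.

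**Figure D1:**
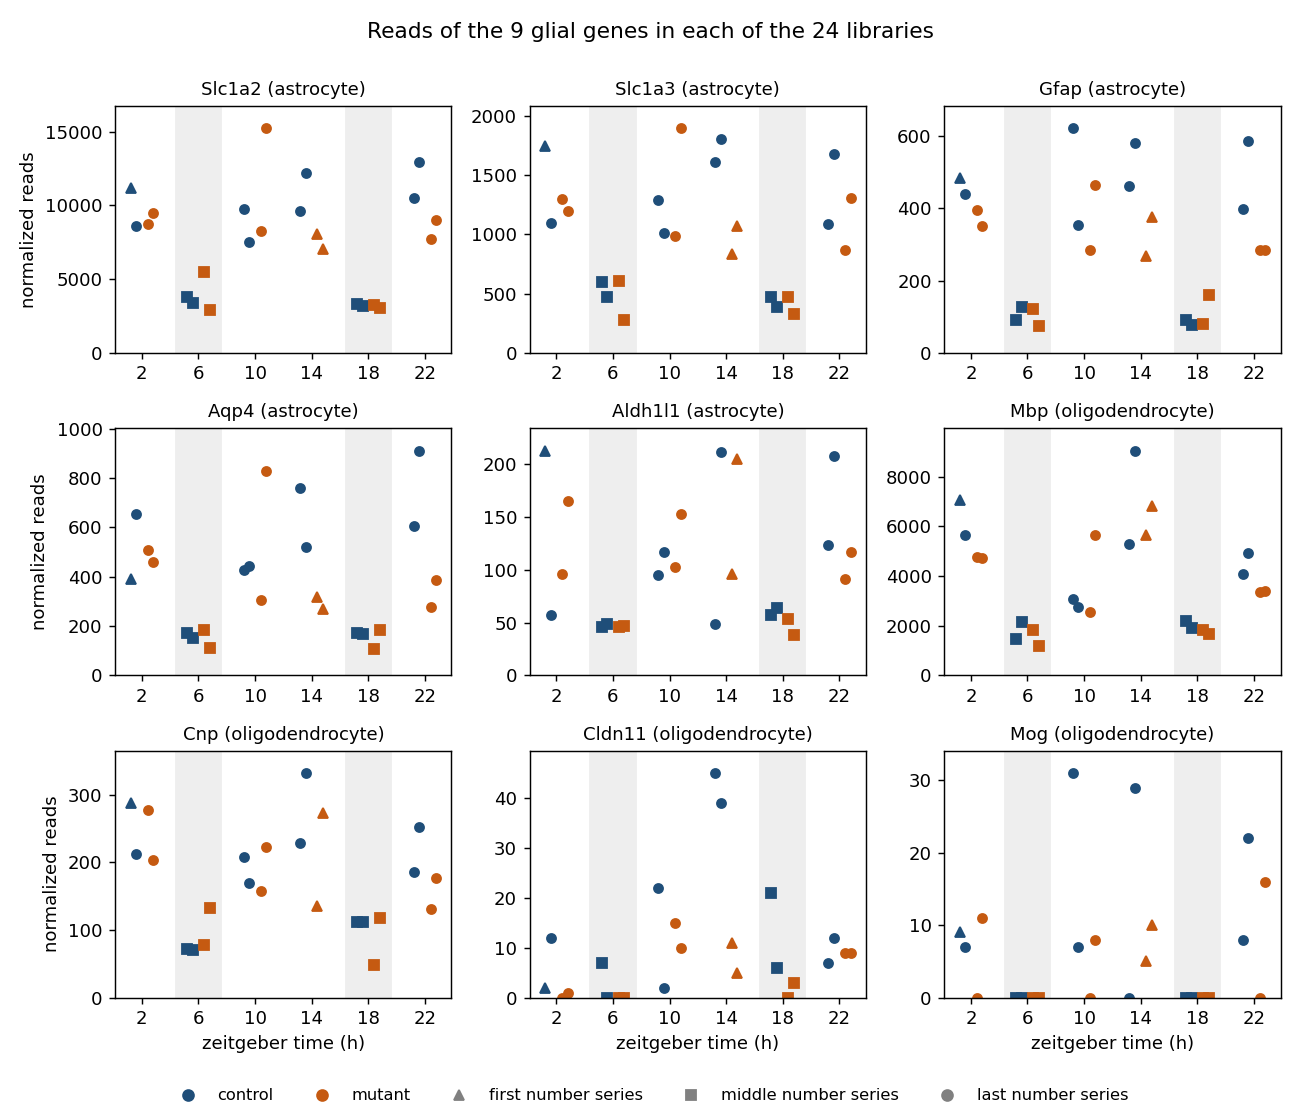
Normalized reads of each glial gene (vertical axis, linear from 0) against zeitgeber time in hours (horizontal axis); each point is 1 library of 1 mouse, colour gives the genotype and shape the number series, and points are spread sideways within a time. In the grey bands, ZT6 and ZT18, Slc1a2 lay at 2907 to 5468 reads and elsewhere at 7020 to 15226, and Mog had no reads in the bands.

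The second comparison set the 8 libraries of ZT6 and ZT18 against the other 16. Glial genes were lower there: 7 members, all but Mog and Cldn11, passed the threshold in that direction, while 10.9% of all genes did, 1688 of 15493. Their log2 differences ran from -1.97 to -1.21, against a median of -0.01 over all genes. Both classes took part, with the 5 astrocyte genes and Mbp and Cnp. Mog had passed the filter on low values only through libraries of the other times and is described without a test; the counts for all genes and for the lists of cell types can include such genes. In 5 members, Slc1a2, Slc1a3, Gfap, Aqp4 and Mbp, every ZT6 and ZT18 library lay below every other library in reads scaled to library size (CPM), which held for 2.35% of all genes. Since the middle number series is the same 8 libraries, these differences belong to time of day and library series together. In sorted bulk samples, fewer cells of a type and less RNA per cell cannot be told apart.

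Among the astrocyte genes, Slc1a2 had 2907, 3282 and 5468 reads (lowest, median and highest of 8) at ZT6 and ZT18 and 7020, 9251 and 15226 in the other 16 libraries. The ranges did not overlap, and the level was 2.72-fold lower (log2 difference -1.45, SE 0.13, edgeR adjusted p = 3.98e-10). Gfap had the largest difference of the astrocyte members, with 75, 91 and 159 reads against 268, 397 and 621. It was 3.92-fold lower (log2 difference -1.97, SE 0.17, edgeR adjusted p = 7.53e-11). Aqp4 had 107, 170 and 185 reads against 267, 451 and 910, with no overlap. It was 3.18-fold lower (log2 difference -1.67, SE 0.19, edgeR adjusted p = 4.37e-08).

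The second glutamate transporter, Slc1a3, followed Slc1a2. It had 274, 470 and 605 reads against 836, 1244 and 1892 and was 2.86-fold lower (log2 difference -1.52, SE 0.16, edgeR adjusted p = 3.73e-09). Aldh1l1 had 38, 48 and 64 reads against 49, 117 and 213. The lowest of the other libraries, control ZT14 replicate 1 at 49 and control ZT2 replicate 2 at 57, lay inside the ZT6 and ZT18 range. It was 2.61-fold lower (log2 difference -1.39, SE 0.24, edgeR adjusted p = 5.77e-05).

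Among the oligodendrocyte genes, Mbp had 1175, 1811 and 2172 reads against 2554, 4838 and 9040. All 8 libraries lay below the other 16, and the level was 2.78-fold lower (log2 difference -1.48, SE 0.18, edgeR adjusted p = 1.45e-07). Cnp had 48, 94.5 and 132 reads against 131, 210 and 332. The ranges overlapped by a single read, with mutant ZT6 replicate 2 at 132 and mutant ZT22 replicate 1 at 131, and the level was 2.32-fold lower (log2 difference -1.21, SE 0.19, edgeR adjusted p = 9.26e-06).

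Mog was listed at 0 in all 8 libraries of ZT6 and ZT18 and in 4 of the other 16. The highest of the 16 had 31 reads, and their mean was 10.2 ± 9.78 (SD). Cldn11, which did not pass, had 0, 1.5 and 21 reads at ZT6 and ZT18 and 0, 9.5 and 45 elsewhere. These ranges overlapped almost fully, with 21 reads in control ZT18 replicate 1, and the log2 difference of -1.83 had a SE of 0.84 (edgeR adjusted p = 0.146).

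**Figure D2:**
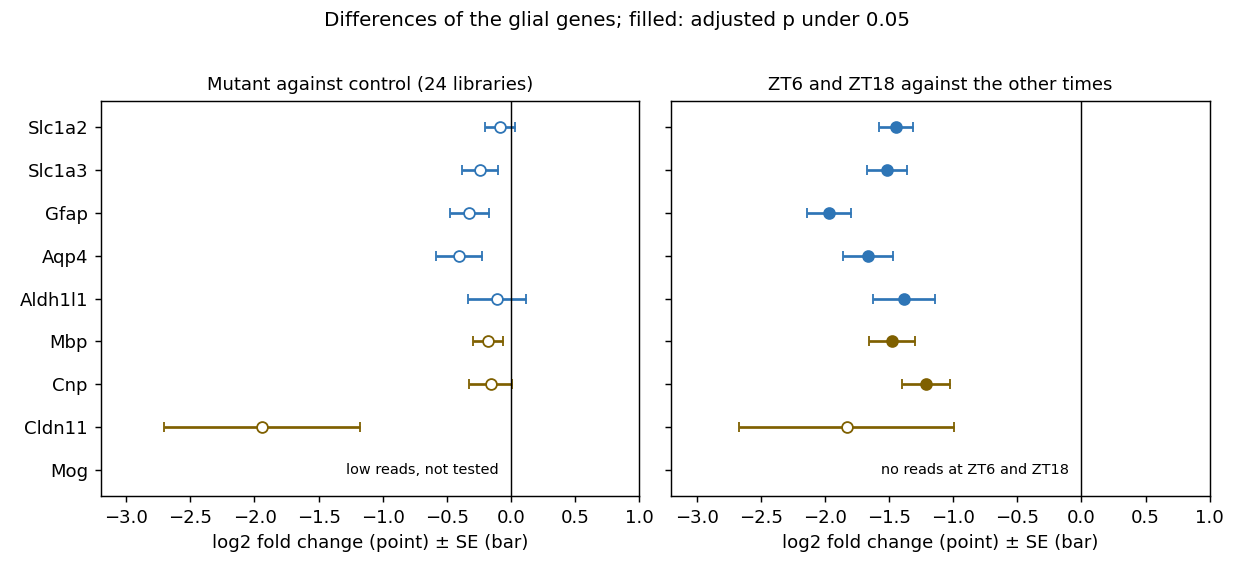
Log2 fold changes (points) with their standard errors (bars) for each member, mutant against control on the left and ZT6 and ZT18 against the other times on the right; astrocyte genes are blue, oligodendrocyte genes brown, and filled points had an adjusted p under 0.05. On the left no point is filled and the values run from -1.94 to -0.09, and on the right the filled points run from -1.97 to -1.21. Mog was fitted with all genes but has no point in either panel, because it passed the filter only through the group with more reads.

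The difference was present in each genotype. In controls alone the log2 values of the 7 members that passed ran from -2.36 (Gfap) to -1.33 (Aldh1l1), and in mutants alone from -1.60 (Gfap) to -1.04 (Cnp). All 7 passed the threshold in both (edgeR adjusted p at most 0.0398), where 1064 of all genes were called in controls alone and 1535 in mutants alone, in both directions. A test of the difference between genotypes called 0 of the 8 members other than Mog and 0% of all genes, 0 of 15493, with 1 member and 612 genes at an unadjusted p under 0.05. That member was Gfap, whose difference was smaller by 0.75 in mutants (SE 0.29, edgeR unadjusted p = 0.0142 and adjusted p = 1.00). The i5 index was the same in all 8 libraries of ZT6 and ZT18 and was the other one in 12 of the other 16, among them all 8 mutants, so in mutants alone index and time cannot be told apart. With the index as a covariate over both genotypes, the same 7 members passed, while calls over all genes in both directions went from 2595 to 1003, and the log2 difference of Slc1a2 was -1.27 and that of Mbp -1.19. That of Cldn11 then was -0.43.

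The longer lists of glial genes gave the same direction. Of 25 other astrocyte genes, all were tested, 21 were lower at ZT6 and ZT18, none was higher and 4 did not pass, with a median log2 difference of -1.50. The smallest p-values belonged to Cst3, a secreted protease inhibitor (3.83-fold lower, edgeR adjusted p = 4.47e-13), Aldoc, a glycolytic aldolase (3.37-fold, 2.42e-10), and Ndrg2 (2.58-fold, 3.27e-10). Acsbg1, which activates fatty acids, was 3.77-fold lower and Mlc1, a membrane protein of the endfeet, 3.10-fold lower. Kcnj10, the inward rectifier potassium channel of the endfeet, was 2.84-fold lower. The 4 that did not pass were Gja1, Glul, Fgfr3 and Cldn10, with log2 differences of 0.14, -0.20, -0.51 and -1.95.

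Of 25 other oligodendrocyte genes, 19 were tested, 12 were lower, none was higher and 7 did not pass, with a median log2 difference of -1.93. The other 6 did not reach the minimum of reads. Mobp, a protein of compact myelin, was 2.65-fold lower (edgeR adjusted p = 2.54e-07) and Trf, transferrin, 5.77-fold lower (1.12e-07). Bcas1 was 3.35-fold and Ermn 5.16-fold lower. Among those that did not pass, Mal, Tspan2 and Ppp1r14a had log2 differences of 0.13, -0.06 and 0.57. The others were negative, with Aspa at -2.33, Sox10 at -1.95, Nkx6-2 at -2.78 and Tmem88b at -0.60. Aspa, Sox10 and Nkx6-2 had few reads, with medians of 1.5, 12 and 5. Kcnj10, Gja1, Glul, Fgfr3, Cldn10, Tspan2, Ppp1r14a, Aspa, Sox10, Nkx6-2 and Tmem88b fall outside the rule for named genes. They were chosen after their values were seen.

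Lists of other cell types moved with the glial genes. All 9 microglial genes were lower at ZT6 and ZT18, with a median log2 difference of -3.89 and a summed level of 323 to 569 against 2249 to 6379. Of 9 neuronal genes 7 were lower (median -2.57, sum 20.7 to 44.2 against 26.6 to 89.2), and of 4 tested choroid plexus and ependymal genes 3 were lower (sum 1001 to 3734 against 1278 to 25563, with Tmem212 at 0 throughout). Of 6 red blood cell genes 5 were lower (sum 1301 to 3823 against 1670 to 5430). In the other direction, in which 5.85% of all genes passed, 9 of 12 endothelial genes were higher (median 0.36, sum 15070 to 16834 against 7877 to 13492), as were 8 of 9 pericyte and smooth muscle genes (sum 2347 to 3837 against 1246 to 2618). Meningeal fibroblast genes gave 1 lower of 7 (sum 23.9 to 39.99 against 15.1 to 49.2). Of 5 tested genes of oligodendrocyte precursors, 1 was higher, Cspg4, which pericytes also express, and none was lower (sum 31.4 to 57.3 against 16.6 to 42.0). The part of these cell types, of the mitochondrial share and of the library series in the result was not tested.

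**Figure D3:**
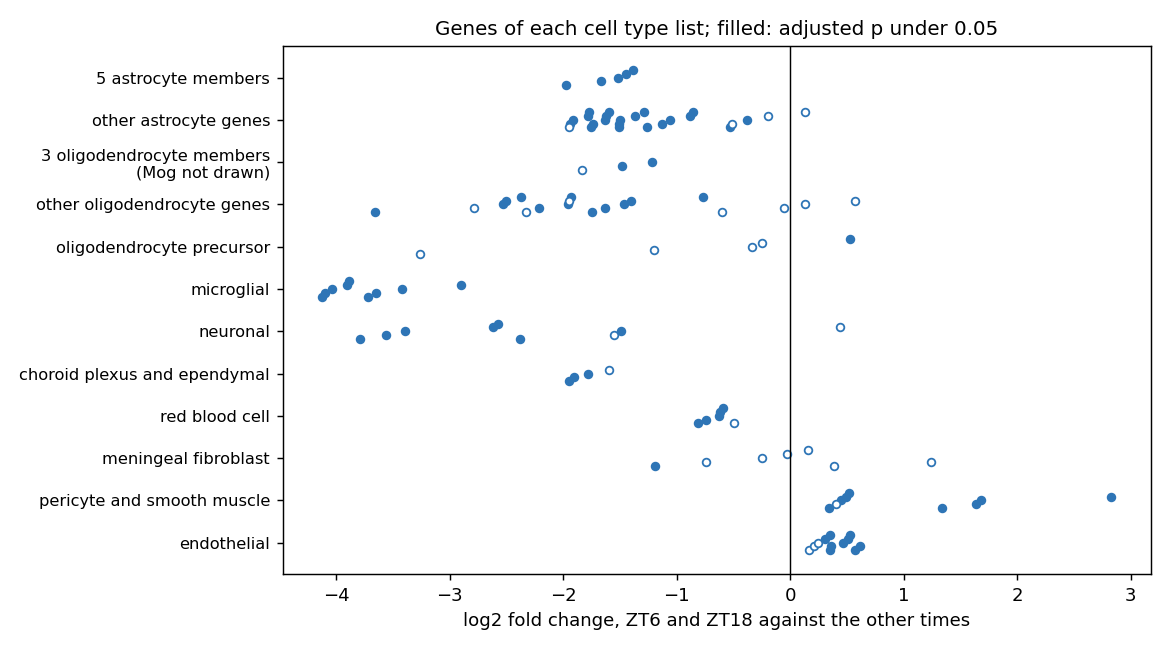
Log2 fold change at ZT6 and ZT18 against the other times (horizontal axis) for each tested gene of the cell type lists (rows); each point is 1 gene, spread upwards and downwards for visibility, and filled points had an adjusted p under 0.05. The 5 astrocyte members lie between -1.97 and -1.39, the other astrocyte genes have a median of -1.50, and the endothelial genes, with a median of 0.36, lie on the other side of 0.

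In the comparison of genotypes the same lists held few calls. Of the 25 other astrocyte genes 1 was lower in mutants, Apoe, which carries lipids and is also made by microglia (1.35-fold, log2 difference -0.43, SE 0.10, edgeR adjusted p = 0.0451). None of the 19 other oligodendrocyte genes tested passed. Median log2 differences were -0.15 and -0.11. None of the genes of the other cell type lists passed. All 6 red blood cell genes had negative estimates in mutants, as the members did, with a median of -0.38, and their part in the members' direction was not tested.

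The third question was whether the 2 classes moved apart. The log2 ratio of Mbp to Slc1a2 reads within each library was -1.004 ± 0.37 (SD, n = 8) at ZT6 and ZT18 and -1.04 ± 0.49 (n = 16) in the other libraries. That difference of 0.04 was smaller than either spread (exact permutation test within genotype, two-sided, p = 0.853). It was -1.07 ± 0.47 in 12 mutants and -0.99 ± 0.43 in 12 controls, a difference of -0.08 (exact permutation test within time points, two-sided, p = 0.449). A p above the threshold does not show that the ratio was equal. The test of ZT6 and ZT18 shuffled single libraries, although the mean ratio varied between time points, with -1.23 at ZT6 and -0.77 at ZT18.

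Between single time points the ratio covered a wider range. At ZT10 its mean over 4 libraries was -1.57 ± 0.14 (SD), from -1.70 to -1.44. At ZT14 it was -0.47 ± 0.34, from -0.87 to -0.04, so that the 4 libraries of ZT10 lay below the 4 of ZT14 in both genotypes. In mutants, however, the ZT14 libraries were all of the first number series and the ZT10 libraries all of the last. Time and series cannot be told apart there, and the mean ratio was -0.41 in the first series and -1.19 in the last. In controls, the ZT10 libraries carried a different i5 index from the ZT14 libraries, so time and index cannot be told apart in them. Their mitochondrial share also differed, at 7.27% and 7.07% at ZT10 against 17.4% and 15.3% at ZT14. The part of index and mitochondrial share was not tested. The other times gave -0.79 at ZT2, -1.23 at ZT6, -0.77 at ZT18 and -1.34 at ZT22. These values were looked at after the data had been seen and were given no test of their own. Among ZT2, ZT10, ZT14 and ZT22 a test of time added after the values were known called 1 of 9 members, Mbp, and 1.14% of all genes, 176 of 15493.

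At ZT10 the 4 libraries had 2554, 2742, 3076 and 5628 Mbp reads, and at ZT14 5271, 5634, 6806 and 9040. Mutant ZT10 replicate 2 at 5628 was the only one of the 4 to reach the ZT14 range. Relative to ZT2, Mbp was at -0.63 at ZT10, 0.37 at ZT14 and -0.49 at ZT22 on the log2 scale (edgeR adjusted p = 0.0264). Slc1a2 was at 0.13, 0.04 and 0.07 (edgeR adjusted p = 0.989). The Mbp result did not hold without the first number series (edgeR adjusted p = 0.241), whose 3 libraries are all at ZT2 and ZT14, and it was lost when any of 7 single libraries was left out, control ZT14 replicate 2 giving the highest value (0.162). The others were both control ZT10 libraries, mutant ZT2 replicate 2, mutant ZT10 replicate 1, mutant ZT14 replicate 2 and mutant ZT22 replicate 2. Of the 19 other oligodendrocyte genes, Mobp (edgeR adjusted p = 0.0356) and Mal (0.00023) passed the same test, and of the other astrocyte genes none did.

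**Figure D4:**
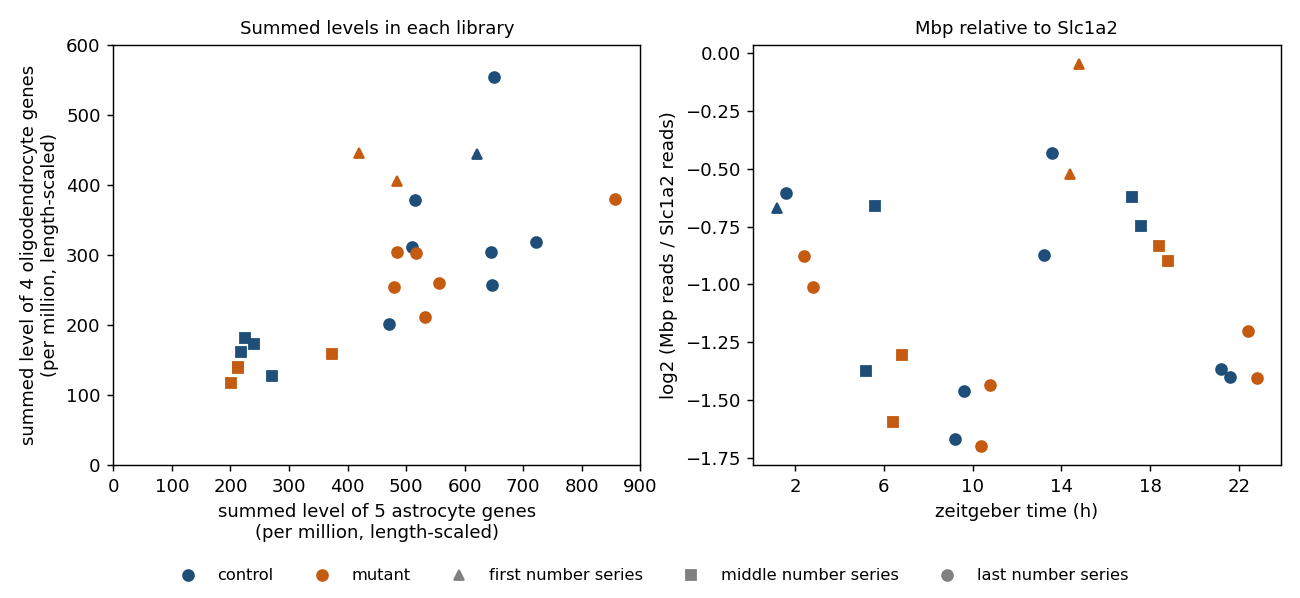
Left, summed length-scaled level of the 5 astrocyte genes (horizontal axis) and of the 4 oligodendrocyte genes (vertical axis), 1 point per library; right, log2 of Mbp over Slc1a2 reads (vertical axis) against zeitgeber time in hours; colours give the genotype and shapes the number series. The squares of ZT6 and ZT18 lie at 202 to 374 and 118 to 181, below the other libraries on both axes, while their ratio of Mbp to Slc1a2 lies within the range of the others, -1.70 to -0.04.

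The fourth comparison fitted a 24-h cosine to each gene, as an edgeR test in place of the method of the study. In controls 0 of 9 members passed and 0.0904% of all genes did, 14 of 15493. In mutants none of the members other than Mog passed, and 0% of all genes did. The same held for the difference between genotypes. Mog passed the filter through control libraries only and is left out of both of these counts. The test of the difference recovered fewer changed genes on simulated data than the other models did, so its count of 0 does not show equal rhythms. The simulated counts for these tests varied less between libraries than the real ones, whose fitted dispersion was 0.285 in controls and 0.242 in mutants. They also lacked the difference at ZT6 and ZT18, so few or no calls do not show an absence of rhythms. With an indicator of ZT6 and ZT18 as covariate 0 members passed in either genotype, while 57 of all genes did in controls and 31 in mutants. Without that covariate, no member counted in these tests had an unadjusted p under 0.05 in any of them, which 686, 645 and 660 genes had. For Slc1a2 the fitted log2 amplitude was 0.20 in controls and 0.31 in mutants, and for Mbp 0.31 and 0.22. Since ZT6 and ZT18 lie 12 hours apart, a level that is low at both adds little to a cosine with a period of 24 hours. Of the other oligodendrocyte genes Mal passed in controls (edgeR adjusted p = 0.0423).

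Within a number series, members could be compared over libraries that did not carry the difference above. In the last series (13 libraries) 7 of 36 pairs of members had an adjusted p under 0.05 (Pearson correlation of log2 CPM values, permutation test, adjusted over the 64 pairs of both series). The 2 glutamate transporters were the closest pair, with r = 0.88 and rho = 0.86 (permutation p = 0.00014 and 0.00034, adjusted p = 0.00896 and 0.0109) and r = 0.80 without the 2 libraries farthest from the median. Mbp and Cnp had r = 0.83 and rho = 0.83 (permutation p = 0.00057 and 0.00085, adjusted p = 0.0122 and 0.0136), and r = 0.67 without 2 libraries. Pairs across the classes were among the 7: Slc1a3 with Cnp had r = 0.82 and rho = 0.86 (permutation p = 0.00045 and 0.00031, adjusted p = 0.0122 and 0.0109), and r = 0.69 without 2 libraries. Gfap with Cnp and Slc1a3 with Mbp had r of 0.77 and 0.73 (permutation, adjusted p = 0.0251 and 0.0384). Slc1a2 with Mbp had r = 0.66 and rho = 0.67 (permutation p = 0.0127 and 0.0145, adjusted p = 0.0676 and 0.0731).

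The median r was 0.68 among astrocyte genes, 0.36 among oligodendrocyte genes, where 5 of 6 pairs include Mog or Cldn11, and 0.55 between the classes. In the middle series (8 libraries, Mog left out because it had no reads) no pair of 28 passed with Pearson's r. There Slc1a2 and Slc1a3 had r = 0.79 and rho = 0.93 (exact permutation p = 0.0108 and 0.00223, adjusted p = 0.0635 and 0.0204), and Slc1a2 with Mbp r = 0.26 (exact permutation, adjusted p = 0.609).

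Over all 24 libraries, the kept genes whose CPM values ranked most like Slc1a2 were Ncan, Scg3, Slc1a3, Ank2 and Gpm6b, with Spearman's rho of 0.95 to 0.94. In the 16 libraries outside ZT6 and ZT18 these had rho of 0.83 to 0.93. Those most like Mbp were Mobp, Plekhb1, Kif1a, Bcas1 and Prr18, with rho of 0.98 to 0.95, and of 0.83 to 0.95 in the 16 libraries. The order of the members did not follow the classes throughout. In likeness to Slc1a2, Gfap was 27th, Aqp4 43rd, Mbp 219th, Cnp 240th, Aldh1l1 652nd, Mog 770th and Cldn11 1791st. In likeness to Mbp, Cnp was 79th, Slc1a3 98th, Gfap 181st, Slc1a2 211th, Aldh1l1 334th, Aqp4 339th, Mog 786th and Cldn11 2244th. The rho of the members was lower in the 16 libraries than over all 24: Slc1a2 with Mbp went from 0.80 to 0.37, Slc1a2 with Aldh1l1 from 0.72 to 0.34 and Mbp with Aqp4 from 0.75 to 0.23. These are descriptions over libraries that share the difference at ZT6 and ZT18.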

How the data were processed

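The authors aligned the reads with STAR v2.5.3a to GRCm38, merged lanes with SAMtools v1.3.1 and deposited whole-number read counts per Ensembl gene after PORT normalization. The libraries were thereby given near-equal totals, so their depth before PORT is unknown and counting error rests on normalized reads. All 24 columns matched a sample label. Members, lists and tests were chosen with earlier results of these data known. Genes were kept if 6 control or 6 mutant libraries reached 5 reads. The tests were edgeR's quasi-likelihood test (v4.0.16, R 4.3.3) with TMM scaling and Benjamini-Hochberg adjustment over 15493 genes. Time point was the covariate for genotype, and genotype was the covariate for ZT6 and ZT18. The models were tested on simulated data, which had a lower dispersion between libraries than the fits of the real counts. Changes had a log2 size of 2 for the time test and for the genotype difference of the ZT6 and ZT18 contrast, and of 1 otherwise. Among the models at size 1, that for the rhythm difference missed the most changed genes. MetaCycle was not used; a 24-h cosine replaced it. Mice were separate animals. Levels per length used GENCODE vM21 exon lengths. Correlations used log2(CPM + 1) with 100000 permutations, or all arrangements for 8 libraries (Python 3.11.15, SciPy 1.17.1). Named genes were the members, Arntl, up to 5 list genes per direction and comparison with the smallest p past the threshold, and the 5 genes most like Slc1a2 and Mbp. An item that the rule named is not reported here. Alternatives were DESeq2 1.42.0, other scalings, filters and covariates, the replicate block, and libraries left out. The time test outside ZT6 and ZT18 was added after the data had been seen.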

Additional observations from a re-analysis of the deposited data

Results flagged for a closer look

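Within a genotype and number series of 4 to 7 libraries, 4 of 34 sets of member reads held a library whose gap to its nearest neighbour was wide for the range of the set (Dixon's criterion, which chance meets in about 1 of 20 sets). Slc1a2 had 15226 reads in mutant ZT10 replicate 2, against 7696 to 9522 in the other 5 mutants of the last series, and 5468 reads in mutant ZT6 replicate 1, against 2907 to 3226 in the other 3 mutants of the middle series. Aqp4 had 149 reads in control ZT6 replicate 2, against 169 to 170 in the other 3 controls of the middle series. Cldn11 had 3 reads in mutant ZT18 replicate 2 and 0 in the other 3 mutants of the middle series, a set in which any read at all would have met the criterion.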

How the results depend on the processing

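No member was called between genotypes in any of 35 alternatives, while the count over all genes ran from 3 to 141. Between ZT6 and ZT18 and the other times, the 7 members other than Mog and Cldn11 were called in all 34 alternatives, with 1003 to 2979 of all genes. Calls in the genotype difference of that contrast, in both rhythms and in their difference stayed at 0 members in all alternatives, while the counts over all genes were 0 for the first, 4 to 189 for the rhythm of controls, 0 to 83 for that of mutants and 0 to 52 for the rhythm difference. The 1 member called among ZT2, ZT10, ZT14 and ZT22 became 0 with no scaling beyond the deposited totals and without the first number series, and leaving out single libraries gave 0 to 1; the edgeR adjusted p of Mbp there ran from 4.38e-11 with no filter to 0.241. The cause was not tested. Replicate numbers did not pair the samples, since samples with the same number deviated together with r of -0.0048 to 0.0357. With the replicate block 0 members were called between genotypes (43 of all genes), the same 7 at ZT6 and ZT18 (2618), and 1 among the other times (195). Spearman's rho gave 1 pair in place of 0 in the middle series, and 7 in the last series with either measure, of which 3 were pairs of astrocyte genes and 3 pairs across the classes with Pearson's r, and 1 and 5 with rho. Low reads limit what can be said of Mog and Cldn11, whose medians were 2.5 and 7 reads.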
